A study of Sorghum bicolor with 12 samples.

Results

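In middle internodes of the stem of CSH22SS, a sweet sorghum (Sorghum bicolor) hybrid, 80 gene loci read at least 8-fold lower in each of the groups labelled Ds1, Ds2 and Ds3 than in booting, without reading 4-fold lower in the later stages of stem development where the gene had a developmental row of its own (68 of the 80). They were chosen on the values themselves. A locus entered when it carried a gene name, read at least 10 FPKM in booting (fragments scaled by the length of the transcript and the size of the library), and had a ratio of booting to Ds, each with 1 FPKM added, of at least 8 in each Ds group. Of 34718 loci in the set of columns headed water-limiting conditions, 8705 named loci reached 10 FPKM in booting, and 118 of them met the ratio in all 3 Ds groups. Genes whose own row in the developmental set was at least 4-fold lower in milky or in maturity than in booting were then dropped, which removed 38 and left the 80.

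The Ds1, Ds2 and Ds3 groups were middle internodes labelled as booting stage with those codes, and the milky and maturity groups were internodes of the same hybrid at the milky stage and at physiological maturity. The plain booting group (panicle still within the flag-leaf sheath) was the comparison for all of them. All plants were of 1 hybrid cultivar, grown in an open field. Total RNA was taken by a modified Trizol method and stranded libraries were made from it, 2 for each of the 6 groups, and the authors deposited 1 value per group. The table heads the Ds columns as water-limiting conditions, but the meaning of the code, the way water was limited and whether the numbers are times or degrees are not stated.

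A grass internode grows from a zone at its base and then thickens its walls and, in sweet sorghum, loads its storage tissue with sucrose. When water is short, expansion growth slows early, abscisic acid rises, and many genes for growth, walls and secondary products are transcribed less while protective genes are transcribed more. The gene names that the table gives are IDs that begin with Sobic, with no symbol or product beside them, and the RefSeq gene table matched 0 of 32976 IDs. The genes below are therefore given by ID alone, with no role, and the tissue could not be checked against marker genes.

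Because each group has a single value, the spread between its libraries is not known, nothing below was tested, and each difference is described by its size alone. Read depth is unknown. The FPKM totals of the water-limiting set were 885374 in Ds1, 682190 in Ds2, 647608 in Ds3 and 477138 in booting. The median log2(FPKM + 1) change over the 8705 loci was -0.27 in Ds1, -0.35 in Ds2 and -0.29 in Ds3, each against booting. These 8705 had to pass a minimum in booting alone, which favours loci that read lower elsewhere, so their centre is not that of the table. The 80 loci passed the same minimum and are to be read against this somewhat lower centre. In whole internode tissue, fewer cells of a type and less RNA per cell cannot be told apart.

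Under all 3 Ds labels the loci read far below booting. The 80 loci together summed to 370 FPKM in Ds1, 190 in Ds2 and 177 in Ds3, against 7809 in booting, which is 0.0418%, 0.0278% and 0.0273% of all FPKM in the Ds groups and 1.64% in booting. Their median level was 1.15 FPKM in Ds1, 0.690 in Ds2 and 0.693 in Ds3, against 38.7 in booting. The median member kept 3.15% of its booting FPKM in Ds1, 2.14% in Ds2 and 1.86% in Ds3, and no member kept more than 9.94%, 9.92% and 11.1% in those groups. Over all 8705 loci the median share kept was 82.4% in Ds1, 77.6% in Ds2 and 80.9% in Ds3. On the log2(FPKM + 1) scale the members' median change was -3.83 in Ds1, -4.07 in Ds2 and -4.13 in Ds3. These values chose the members and describe them only. A ratio of 8 was met by 2.02% of the 8705 loci in Ds1, 3.12% in Ds2, 3.01% in Ds3 and 1.36% in all 3, and the members are 0.919% of them.

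**Figure D1:**
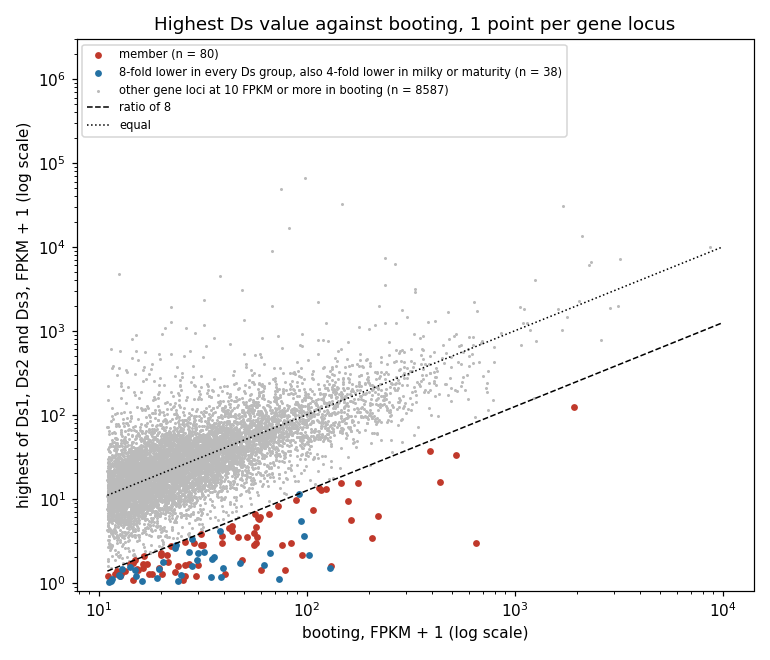
Highest of the Ds1, Ds2 and Ds3 values (vertical axis) against booting (horizontal axis), both as FPKM + 1 on log scales, for the 8705 named loci at 10 FPKM or more in booting. The 80 members (red) lie under the dashed line of ratio 8 by the rule, spread from the lowest booting values up to 1 locus near 1920 FPKM, among the 38 loci (blue) that were also lower in milky or maturity.

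The loci differed widely in how abundant they were at booting. Booting values ran over 10.1 to 1919.9 FPKM, with 16 members at 100 FPKM or more, 42 between 20 and 100, and 22 under 20. The 5 most abundant members made up 50.2% of the summed booting FPKM of all 80. The most abundant was Sobic.007G057100, with 122 FPKM in Ds1, 23.7 in Ds2 and 31.996 in Ds3, against 1919.9 in booting. It was also the most abundant member in Ds1 and in Ds3, so that it was low relative to its own booting level alone. Sobic.003G104600 read 36.2 FPKM in Ds1, 25.8 in Ds2 and 9.47 in Ds3, against 391 in booting. Sobic.006G148800, measured in development only within a joined locus that also read lower in the later stages, read 14.5 FPKM in Ds1, 6.14 in Ds2 and 2.55 in Ds3, against 175 in booting. Both of these were higher in Ds1 than in Ds2 and lowest in Ds3. Sobic.001G351000 read 8.32 FPKM in Ds1, 8.51 in Ds2 and 6.31 in Ds3, against 157 in booting, and so was nearly level over the Ds groups.

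A few members were still well expressed under Ds, and many were close to nothing. In all, 9 members reached 10 FPKM in at least 1 Ds group. Each of them read 113 FPKM or more in booting, where the ratio of 8 by itself requires a high value of such members. They include Sobic.007G057100, Sobic.003G104600 and Sobic.006G148800, named above. Another was Sobic.007G166900, with 14.4 FPKM in Ds1, 13.3 in Ds2 and 5.51 in Ds3, against 145 in booting. Sobic.006G193900 read 12.1, 6.28 and 4.17 FPKM in Ds1, Ds2 and Ds3, against 122 in booting. Sobic.001G073700 read 11.5, 8.70 and 8.49 FPKM in the same groups, against 117 in booting. At the other end, 33 members were under 1 FPKM in every Ds group, with booting values of 10.1 to 130 FPKM. A value of 0 was listed for 0 members in Ds1, 1 in Ds2 and 8 in Ds3, and for 0 members in all 3. The 8 members listed at 0 in Ds3 were Sobic.010G178000, Sobic.004G257900, Sobic.006G169900, Sobic.008G055200, Sobic.004G055400, Sobic.004G075900, Sobic.002G213500 and Sobic.003G050500. Sobic.004G257900 read 1.84 FPKM in Ds1, 0.935 in Ds2 and 0 in Ds3, against 54.9 in booting. Sobic.003G050500, the least abundant member at booting, read 0.197 FPKM in Ds1 and was listed at 0 in Ds2 and Ds3, against 10.1 in booting.

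**Figure D2:**
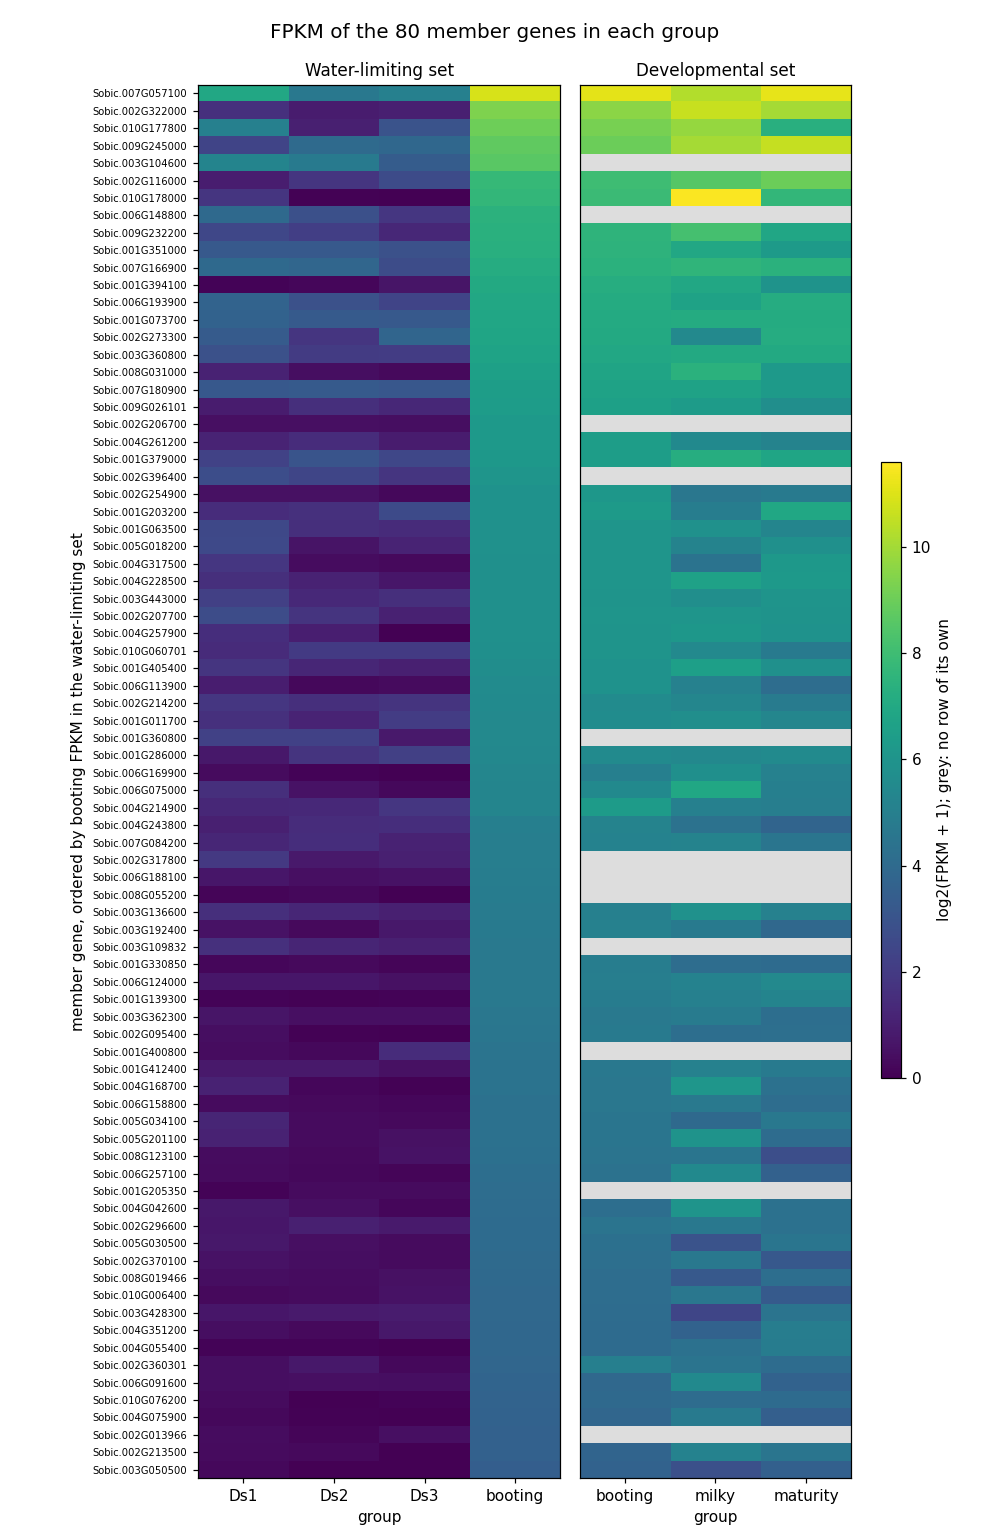
Values of the 80 members as log2(FPKM + 1), 1 row per gene ordered by booting value, in Ds1, Ds2, Ds3 and booting of the water-limiting set (left) and in booting, milky and maturity of the separately scaled developmental set (right). By the rule every row is darker in the 3 Ds columns than in its own booting column of that set. Most rows with a developmental value stay near their booting colour, though a 2-fold change is a small step of this colour scale. Milky and maturity were both under 2-fold from booting in 40 of 68 members, against 91.7% of the 7818 genes under the same 4-fold limit. Grey rows are the 12 members with no developmental row of their own.

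Ranked by the smallest of the 3 ratios, 24 members had at least 16, 7 had at least 32 and 1 had at least 100. That 1 was Sobic.002G322000, which read 2.004 FPKM in Ds1, 0.848 in Ds2 and 1.02 in Ds3, against 651 in booting, a smallest ratio of 217. Sobic.001G394100 followed at 83.9, with 0.0805 FPKM in Ds1, 0.160 in Ds2 and 0.568 in Ds3, against 130 in booting. Sobic.010G178000 had a smallest ratio of 60.5, with 2.42 FPKM in Ds1, 0.0606 in Ds2 and 0 in Ds3, against 206 in booting. The highest Ds value stood in Ds1 for the first and the last of these and in Ds3 for Sobic.001G394100. Sobic.002G206700 was the most even of the leading 10, at 0.402, 0.372 and 0.355 FPKM in Ds1, Ds2 and Ds3, against 77.7 in booting. Sobic.008G031000 read 1.16, 0.330 and 0.224 FPKM in the Ds groups, against 94.2 in booting. Sobic.002G254900 read 0.415, 0.427 and 0.205 FPKM, against 59.5 in booting. Those 3 had smallest ratios of 56.1, 44.2 and 42.4. Sobic.006G169900 read 0.262, 0.0798 and 0 FPKM, against 39.3 in booting. Sobic.009G232200 read 4.61, 3.45 and 1.45 FPKM, against 162 in booting. Sobic.009G026101 read 0.872, 1.98 and 1.42 FPKM, against 83.4 in booting. Their smallest ratios were 31.9, 29.1 and 28.4. Sobic.002G116000, described below with the members that were highest in Ds3, had 35.6.

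The other 56 members had a smallest ratio between 8 and 16. The 5 nearest the limit were Sobic.002G296600 at 8.04, Sobic.001G400800 at 8.08, Sobic.003G428300 at 8.12, Sobic.002G317800 at 8.20 and Sobic.002G273300 at 8.39. Just outside it lay Sobic.005G169700 at 7.98, Sobic.003G079100 also at 7.98, Sobic.003G293800 at 7.88, Sobic.001G107200 at 7.85 and Sobic.006G162000 at 7.81. Sobic.002G296600, inside, read 0.618 FPKM in Ds1, 1.05 in Ds2 and 0.794 in Ds3, against 15.5 in booting. Sobic.005G169700, outside, read 0.842, 0.3997 and 0.294 FPKM in Ds1, Ds2 and Ds3, against 13.7 in booting. These values are alike, and the limit separates them only by its position. Sobic.001G107200, also outside, was an abundant locus with 157 FPKM in Ds1, 117 in Ds2 and 47.1 in Ds3, against 1242 in booting. With 5 FPKM added in place of 1 the rule was met by 23 loci, 22 of them members.

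Within the Ds groups the members were more often lowest in Ds3 and highest in Ds1. The rule set no order among the Ds groups, though it put an upper bound on each. The orders count differences of any size, and by the rule the members read far lower there than the 8705 loci, many of them close to 0. Ds1 held the highest of the 3 values in 49 members (61.3%), against 45.3% of the 8705 loci, and Ds3 the lowest in 43 (53.8%), against 34.2%. The order Ds1 above Ds2 above Ds3 was found in 35 members (43.8%), against 27.3% of all loci, and the reverse order in 8 members (10%), against 25.8%. Sobic.003G050500, listed at 0 in both Ds2 and Ds3, is a tie. The count of 35 places it with Ds3 lowest, and the count of 43 leaves it out, as a locus with Ds2 lowest. Ds3 was below Ds1 in 58 members, where 52.3% of all loci were lower by any amount, and above it in 22, where 47.7% were higher. Ds2 was below Ds1 in 57 members (57.4% of all loci) and above it in 23 (42.6%). Ds3 was below Ds2 in 49 (43.9% of all loci) and above it in 30 (56%). The members' median log2(FPKM + 1) difference was -0.24 for Ds3 minus Ds1, -0.20 for Ds2 minus Ds1 and -0.07 for Ds3 minus Ds2, against -0.03, -0.08 and 0.05 over all loci. Single members spread widely around these medians, with Ds3 minus Ds1 differences of -2.13 to 1.69. In 57 members (71.3%) the 3 Ds values lay within 2-fold on the FPKM + 1 scale, against 84.0% of all loci. The 33 members under 1 FPKM in every Ds group are among these 57 by arithmetic, since adding 1 FPKM keeps such values within 2-fold. The share therefore depends on the added constant. The median of Ds3 minus Ds1 also changed with the added constant. It was -0.75 with 0.1 FPKM in place of 1 and -0.06 with 5 FPKM, near the -0.03 of all loci with 1 FPKM.

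**Figure D3:**
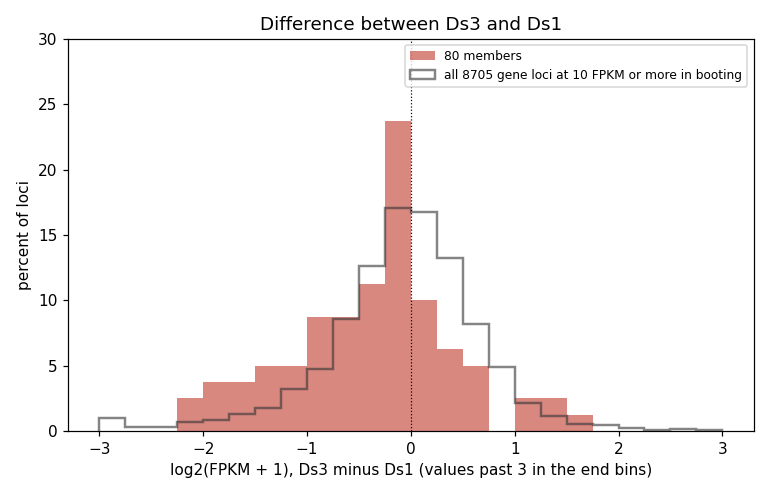
Difference between Ds3 and Ds1 as log2(FPKM + 1), Ds3 minus Ds1, for the 80 members (filled) and for all 8705 named loci at 10 FPKM or more in booting (outline), in percent of each. The members' median is -0.24 and that of all loci -0.03; the tail of members under -1 holds 16 loci and that above 1 holds 5.

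The other 23 members (28.8%, against 16.03% of all loci) differed by 2-fold or more among the Ds groups, in both directions. Ds3 was at least 2-fold lower than Ds1 in 16 members, where the share of all loci was 9.29%, and at least 2-fold higher in 5, where it was 4.7%. Ds2 was at least 2-fold lower than Ds1 in 9 members (6.18% of all loci) and higher in 1 (1.86%), which was Sobic.009G245000. Ds3 was at least 2-fold lower than Ds2 in 4 members (1.49%) and higher in 4 (1.61%). The furthest toward a lower Ds3 were Sobic.006G148800 at -2.13, Sobic.010G177800 at -2.08, Sobic.007G057100 at -1.89, Sobic.003G104600 at -1.83 and Sobic.010G178000 at -1.77, all as log2(FPKM + 1) of Ds3 minus Ds1. Each of these was among the 10 most abundant members at booting. The rule bounds each Ds value by the booting value, so with 1 FPKM added members low in booting cannot differ this much. Members under 20 FPKM in booting read at most 1.28 FPKM in any Ds group. Few members read 10 FPKM in a Ds group, which a 4-fold comparison needs to rest on more than low values. Among the 9 that did in Ds1 or Ds3, Ds3 was 4-fold lower than Ds1 in 2 (2.42% of such loci), Sobic.006G148800 and Sobic.010G177800, and higher in 0 (0.505%). Among the 8 that did in Ds1 or Ds2, Ds2 was 4-fold lower than Ds1 in 2 (1.38%), Sobic.007G057100 and Sobic.010G177800, and higher in 0 (0.197%). Among the 5 that did in Ds2 or Ds3, no 4-fold difference between these groups was seen in either direction, where 0.199% of such loci were lower in Ds3 and 0.0568% higher. Sobic.010G177800 read 31.8 FPKM in Ds1, 1.04 in Ds2 and 6.74 in Ds3, against 519.2 in booting, so its lowest value was in Ds2. Sobic.002G273300 had the same low point in Ds2, with 8.93 FPKM in Ds1, 2.49 in Ds2 and 12.6 in Ds3, against 113 in booting.

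The 5 members with Ds3 furthest above Ds1 were Sobic.002G116000 at 1.69, Sobic.009G245000 at 1.495, Sobic.001G286000 at 1.44, Sobic.001G203200 at 1.16 and Sobic.001G400800 at 1.05 on the same scale. Sobic.002G116000 read 0.921 FPKM in Ds1, 2.51 in Ds2 and 5.19 in Ds3, against 219 in booting. Sobic.009G245000 read 4.24 FPKM in Ds1, 15.0 in Ds2 and 13.8 in Ds3, against 436 in booting. In both, every Ds value stayed far under the booting value. Sobic.001G286000 read 0.667, 2.33 and 3.53 FPKM in Ds1, Ds2 and Ds3, against 41.1 in booting. Sobic.001G203200 read 1.73, 2.05 and 5.09 FPKM in the same groups, against 58.6 in booting.

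The developmental set shows what the same genes did in later internodes without the Ds label. Of the 80 members, 68 had a row of their own there. Their lower side is limited by the rule and their higher side is not, so they are set beside the 7818 genes at 10 FPKM or more in booting that also had a row and were under 4-fold lower in both later stages. The median log2(FPKM + 1) change of the members was 0.05 in milky and -0.17 in maturity, against 0.02 and 0.06 for those genes, with the same booting libraries in both comparisons. Milky was above booting by any amount in 39 members (51.1% of those genes) and maturity in 28 (57.8%). Medians hid a wide spread. Milky and maturity both lay under 2-fold from booting in 40 of the 68 members, whereas this held for 91.7% of the 7818 genes. Members ran over -1.68 to 3.65 in milky and over -1.90 to 1.601 in maturity.

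Milky was at least 2-fold higher than booting in 10 members, where the share of the 7818 genes was 2.34%, and at least 4-fold higher in 1, where it was 0.153%. That member, Sobic.010G178000, read 239 FPKM in booting, 3004 in milky and 205 in maturity, and had 2.42 FPKM or less in the Ds groups. The next were Sobic.004G042600, with 17.3 FPKM in booting, 62.7 in milky and 19.0 in maturity, and Sobic.006G091600, with 14.4, 43.9 and 11.5. Sobic.004G168700 read 23.3, 66.8 and 19.3 FPKM in booting, milky and maturity, and Sobic.005G201100 read 21.9, 61.0 and 16.1. These 5 members peaked in milky and were within 1.5-fold of booting at maturity. Over the 68 members the highest of the 3 developmental values stood in booting for 18 (26.5%), in milky for 32 (47.1%) and in maturity for 18 (26.5%). Of the 7818 genes, 21.4% were highest in booting, 39.3% in milky and 39.3% in maturity.

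Maturity was at least 2-fold higher than booting in 2 members, where the share of the 7818 genes was 0.358%, and 4-fold higher in 0 of the 68 and in 0% of those genes. Either later stage was 2-fold higher in 11 members, against 2.63% of those genes. Sobic.009G245000 read 504 FPKM in booting, 1034 in milky and 1531 in maturity. Sobic.002G116000 read 254 FPKM in booting, 372 in milky and 512 in maturity. Both were also the members with Ds3 furthest above Ds1. The next highest in maturity were Sobic.004G351200, with 15.7, 11.5 and 28.7 FPKM in booting, milky and maturity, Sobic.004G055400, with 15.7, 19.1 and 28.3, and Sobic.002G213500, with 12.4, 34.8 and 21.8.

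**Figure D4:**
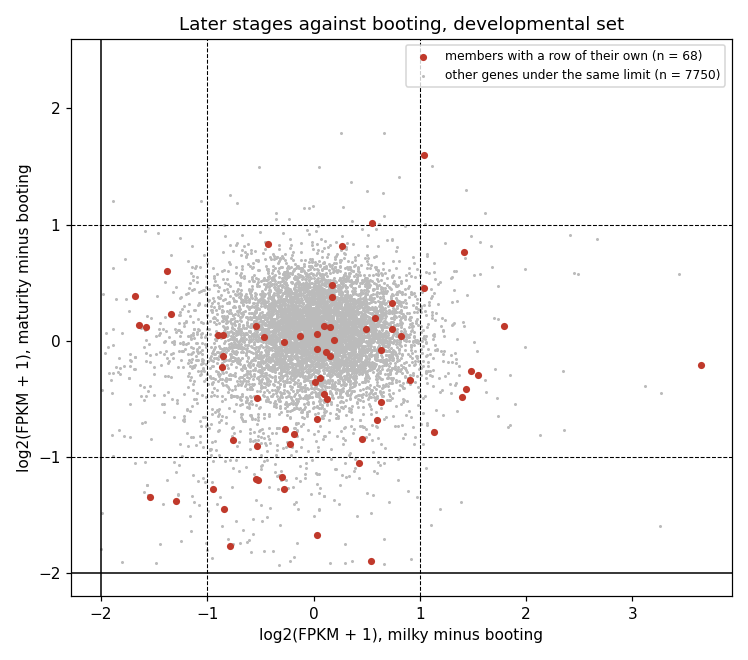
Change of the 68 members with a developmental row of their own (red) and of 7750 other genes under the same limit (grey), as log2(FPKM + 1), milky minus booting (horizontal) and maturity minus booting (vertical). Solid lines mark the 4-fold limit of the rule and dashed lines 2-fold; 40 members lie within the dashed square and 1 at 3.65 on the milky axis.

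Not every member was steady in the later stages short of the 4-fold limit. In 17 of the 68, milky or maturity was at least 2-fold lower than booting, where the share of the 7818 genes was 5.79%, and in 2 both were. Milky was 2-fold lower in 7 members, against 4.17% of those genes, and maturity in 12, against 2.02%. Sobic.010G177800 came closest to the limit in maturity, with 601 FPKM in booting, 876 in milky and 160.02 in maturity. Sobic.003G428300 was lowest relative to booting in milky, with 16.1 FPKM in booting, 4.33 in milky and 21.3 in maturity. Sobic.002G254900 was lower in both, with 68.8 FPKM in booting, 23.0 in milky and 26.5 in maturity. If the limit were set at 2-fold, 63 loci would meet the rule, all of them members.

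For the other 12 members the developmental set holds the gene only in a locus that joins it with neighbours, whose reads cannot be separated, so the developmental condition could not be applied to the gene itself. In 4 of the 12 the joined locus was at least 4-fold lower at milky or maturity than at booting. The locus with Sobic.006G148800 read 211 FPKM in booting, 42.8 in milky and 15.4 in maturity. The locus with Sobic.008G055200 read 32.7 FPKM in booting, 12.5 in milky and 1.08 in maturity. The loci with Sobic.006G188100 and with Sobic.001G400800 read 45.4 and 174 FPKM in booting, 16.9 and 87.7 in milky and 8.46 and 26.8 in maturity. For these 4 a low value in the Ds groups alone was not shown, and 76 members remain without them. In the other 8 the joined locus did not pass the limit, which does not show the course of the member itself. Some of these joined loci were still over 2-fold lower in a later stage, and others were not. The locus with Sobic.003G104600, for example, read 452 FPKM in booting, 1044 in milky and 192 in maturity.

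The labels give 1 pair of booting libraries and both sets hold a booting column, which gives a repeat measurement of booting. It reflects processing and not plants. For the 68 members the water-limiting set read a median of 0.865 times the developmental set, against 0.863 times over the genes at 10 FPKM or more with a row in both. After that ratio was allowed for, 2 members stood more than 1.5-fold apart, where 3.73% of such genes with a booting value above 0 in both did. Sobic.004G214900 read 38.0 FPKM in booting of the water-limiting set and 80.6 in that of the developmental set, and Sobic.002G360301 read 13.2 and 31.2. Sobic.006G169900 went the other way, with 39.3 and 31.4 FPKM. With the lower of the 2 booting values, the developmental one rescaled, the 68 members all still met the ratio. The other 12 have no second booting value of their own and were not checked in this way.

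The members lay on all 10 chromosomes, as read from the number in each gene ID. Chromosomes 1 and 2 held 15 each, chromosome 4 held 11, chromosome 6 held 10 and chromosome 3 held 9. As a share of the loci at 10 FPKM or more in booting, members ran from 0.408% on chromosome 9 to 1.39% on chromosome 2. In 3 pairs the members' ID numbers lay within 1000 of each other, a distance chosen after the values were seen. On chromosome 10, Sobic.010G177800 and Sobic.010G178000 have 1 measured gene between them, Sobic.010G177900, which read 0.457, 0.142 and 0.283 FPKM in Ds1, Ds2 and Ds3, against 1.11 in booting. Both members of this pair were high in booting and lower in Ds3 than in Ds1. In milky Sobic.010G177800 read 876 FPKM, against 601 in booting, and Sobic.010G178000 read 3004, against 239 in booting.

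The other pairs were on chromosome 2. Between Sobic.002G206700 and Sobic.002G207700 lie 9 measured loci, of which 3 reached 10 FPKM in booting. Among these 9, Sobic.002G206750 was listed at 0 in Ds1, Ds2 and Ds3, against 6.76 FPKM in booting, under the limit of 10. Sobic.002G207300, in the same stretch, read 338 FPKM in Ds1, 511 in Ds2 and 485 in Ds3, against 55.5 in booting. Between Sobic.002G213500 and Sobic.002G214200 lie 5 measured loci, among them Sobic.002G213800 with 782 FPKM in Ds1, 469 in Ds2 and 295 in Ds3, against 118 in booting. Both stretches therefore also held a gene that was above booting in every Ds group.

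The 38 loci that met the Ds ratios but were dropped for a 4-fold lower value in milky or maturity were less abundant and lower still under Ds. Their median level was 0.519 FPKM in Ds1, 0.217 in Ds2 and 0.199 in Ds3, against 27.2 in booting. Their median change was -3.95 in Ds1, -4.31 in Ds2 and -4.32 in Ds3 on the log2(FPKM + 1) scale, next to -3.83, -4.07 and -4.13 for the 80 members. The median difference of Ds3 minus Ds1 was -0.20 in those 38 and -0.24 in the members. Genes are not replicates, and whether the 2 sets differ was not tested.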

How the data were processed

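RNA was measured in 12 libraries, 2 for each of 6 groups. The authors deposited FPKM values, 1 per group, and the unit comes from the name of the table. The second booting column, recorded under the unit other, holds the authors' deposited FPKM too. Cuffdiff, HISAT2 2.0.5, Bowtie2 2.2.9 and cutadapt 1.8.1 are named, per the submitters' processing notes, with no role or setting. The build, not given in the sources used here, gave no coordinates or sequences to print.

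The developmental and water-limiting columns were scaled separately by the authors, so ratios were taken within a set. Adding 1 FPKM before taking log2 makes changes of low genes look smaller. Python 3.11.15 with pandas 2.3.3 was used, and the scripts were tested on simulated data. Loci with no gene name were left out, and 1 gene that the rule sets aside by name is not reported here.

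The members and lists were chosen with earlier results of these data known. The genes named are the 10 members highest in booting, the 10 with the largest smallest ratio, the 5 nearest the limit on either side, the 5 at each end of Ds3 minus Ds1, and the 5 highest in milky and in maturity against booting. Others were picked for naming with their values known. The planned lists by product and the promoter motifs could not be applied to IDs without annotation.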

Additional observations from a re-analysis of the deposited data

How the results depend on the processing

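No paired analysis was possible because each group has 1 deposited value, and for the same reason no replicate could be left out. The count of 80 loci became 23 with a pseudocount of 5, 270 at a ratio of 4 (all 80 among them) and 24 at a ratio of 16. Under the other alternatives it ran over 58 to 118, with all 80 kept at a pseudocount of 0.1, 75 under median-of-ratios scaling and 79 under quantile normalization. A median was taken as moved when it shifted by over 0.403, the SD of log2(FPKM + 1) between the 2 booting columns. With a pseudocount of 0.1 the members' median log2 change was -4.80 in Ds1, -5.31 in Ds2 and -5.48 in Ds3, each against booting, and with one of 5 it was -2.63, -2.67 and -2.64. Members at 20 FPKM or more in booting had a median of -4.57 in Ds3. Ds3 minus Ds1 had a median of -0.75 with a pseudocount of 0.1 and of -0.06 with one of 5. A count was taken as moved when it left the range of 1.5 times the reported one in either direction. In all, 58 of 69 alternative values, counts and medians together, stayed within these limits, and 1 changed sign, milky against booting, at 0.05 as reported and -0.0065 under quantile normalization. The medians between Ds groups and between developmental stages were all smaller in size than 0.403. Such a median could vanish and still stay within the limit, so for these the tally does not measure stability. Scaling moved the median of all 8705 loci in Ds1 from -0.27 to -0.21 (median of ratios) and -0.36 (quantile). Depth is unknown, so values listed at 0 carry no limit.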

Other observations

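Loci that name no gene were outside the rule. Of 1327 such loci in the water-limiting set, 168 read at least 10 FPKM in booting and 0 had a ratio of 8 in every Ds group. The largest smallest ratio among them was 6.87.

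The dropped loci with the highest booting values are given here, and their lower values in the later stages are the reason they were dropped. Sobic.002G072200 read 0.517 FPKM in Ds1, 0.1995 in Ds2 and 0.0632 in Ds3, against 128 in booting, and in the developmental set 148 in booting, 14.3 in milky and 4.81 in maturity. Sobic.001G291600 read 0.635, 0.193 and 1.14 FPKM in Ds1, Ds2 and Ds3, against 102 in booting. In the developmental set it read 661 FPKM in booting, 189 in milky and 91.4 in maturity, so its booting values in the sets differed widely. These loci were chosen for naming after their values were seen.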
